A study of Mus musculus with 30 samples.

Results

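The genes described here are 48 mouse genes of the placenta out of 45706 genes in the RNA tables of cultures of induced motor neurons. They were listed by name: 24 genes of the prolactin family, Tpbpa and Tpbpb, 8 placental cathepsins, 4 other placental products (Plac1, Psg17, Serpinb9f and Pcdh12) and 10 transcription factors of trophoblast (Ascl2, Cdx2, Elf5, Eomes, Esx1, Gcm1, Hand1, Rhox6, Rhox9 and Tfap2c). The list was selected on levels of these genes in the same RNA libraries, which were already known, so a high level in motor neuron cultures, the difference from embryonic stem (ES) cells and the lower level in 1 of the mutant lines are descriptions and not tests. All 48 genes were found in the RNA tables by symbol and Ensembl identifier, and all 48 had coordinates on mm10.

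The series holds 30 libraries, 8 of RNA and 22 of chromatin immunoprecipitation, and asks which genes the homeobox factor Mnx1 controls in motor neurons. RNA was measured in wild-type ES cells and in motor neurons induced from wild-type ES cells and from 2 lines named HD and EH, each in 2 libraries. Both lines carry the genotype label Mnx1KO, and the labels do not say how HD and EH differ or whether replicates came from separate cultures, so p-values cover the spread between these libraries alone. Motor neurons of every genotype were collected on day 6 of induction through embryoid bodies, with 1 µM retinoic acid, 1 µM SAG (an agonist of hedgehog signalling), 1 µM doxycycline and 5 µM DAPT (an inhibitor of Notch cleavage), while ES cells were kept in medium with serum and LIF. Histone marks were profiled in wild-type and HD motor neurons and not in EH.

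Trophoblast is the outer lineage of the embryo that builds the placenta. It is set apart from the inner cell mass at the blastocyst stage by factors such as Cdx2, Tfap2c, Elf5 and Eomes, and later splits into giant cells, spongiotrophoblast and the labyrinth, for which Hand1, Ascl2 and Gcm1 are needed. Rodents carry large families of placental genes that arose by local duplication: prolactin-like hormones and lysosomal cysteine proteases of the cathepsin family, both in clusters on mouse chromosome 13. These hormones and proteases are known from the placenta and not from neurons, while several of the factors also act elsewhere in the embryo.

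Total expected counts were 53.2 M and 51.3 M in the ES libraries, 13.9 M in each wild-type, 11.2 M and 12.4 M in the HD and 39.8 M and 39.7 M in the EH motor neuron libraries. Both EH libraries were thus deeper than every wild-type and HD library. No batch of culture or sequencing was known, so line and batch cannot be told apart. The RNA of the targeted gene, Mnx1, was at 395.15 and 343.35 TPM (a level scaled to gene length and library size) in wild type, 376.72 and 312.48 in the libraries labelled HD and 446.11 and 564.55 in the libraries labelled EH, against 0.36 and 0.29 in ES cells. Against wild type the log2 difference was -0.14 ± 0.15 (SE) in HD and 0.46 ± 0.15 in EH (edgeR adjusted p = 0.977 and 0.064), so its RNA level does not check the knockout labels. Of 12 motor neuron genes, 11 were at a mean of 1 TPM or more in each of the 3 genotypes. Their summed level was 5111.7 and 5456.6 TPM in wild type, 5833.6 and 5878.2 in HD and 4530.6 and 5406.6 in EH.

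The promoters of the placental products differ from those of the factors in base composition, and the sequences below are shown because the histone marks described later follow the same division. Each is the 250 bases before the annotated start, from RefSeq on GRCm38.p6 (mm10), read 5′ to 3′ in the direction of transcription, with each CpG dinucleotide in capitals. Tpbpa (chr13:60941937-60942186, minus strand), Ctsj (chr13:61005926-61006175, minus strand) and Prl2a1 (chr13:27801405-27801654, plus strand) are the 3 products of highest level. Ascl2 (chr7:142969265-142969514, minus strand) and Cdx2 (chr5:147307250-147307499, minus strand) stand for the factors.
Tpbpa: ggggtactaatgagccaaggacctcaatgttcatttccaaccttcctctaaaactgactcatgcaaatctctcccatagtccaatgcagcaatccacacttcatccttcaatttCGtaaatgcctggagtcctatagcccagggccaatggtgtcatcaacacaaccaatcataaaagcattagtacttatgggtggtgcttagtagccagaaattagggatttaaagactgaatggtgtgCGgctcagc
Ctsj: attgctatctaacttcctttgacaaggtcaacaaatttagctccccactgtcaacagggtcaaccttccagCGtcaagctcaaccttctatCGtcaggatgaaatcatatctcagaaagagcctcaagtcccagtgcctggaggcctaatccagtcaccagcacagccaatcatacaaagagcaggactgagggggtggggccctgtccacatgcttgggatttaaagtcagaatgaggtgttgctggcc
Prl2a1: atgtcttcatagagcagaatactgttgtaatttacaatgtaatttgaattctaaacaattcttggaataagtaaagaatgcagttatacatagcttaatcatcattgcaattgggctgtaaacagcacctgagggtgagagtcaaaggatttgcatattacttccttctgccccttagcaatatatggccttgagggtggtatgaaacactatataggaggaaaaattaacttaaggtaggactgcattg
Ascl2: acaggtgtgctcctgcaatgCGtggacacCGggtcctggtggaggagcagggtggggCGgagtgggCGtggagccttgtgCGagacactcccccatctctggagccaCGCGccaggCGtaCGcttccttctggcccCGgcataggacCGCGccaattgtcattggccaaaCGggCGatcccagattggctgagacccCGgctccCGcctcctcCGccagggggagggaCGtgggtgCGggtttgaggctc
Cdx2: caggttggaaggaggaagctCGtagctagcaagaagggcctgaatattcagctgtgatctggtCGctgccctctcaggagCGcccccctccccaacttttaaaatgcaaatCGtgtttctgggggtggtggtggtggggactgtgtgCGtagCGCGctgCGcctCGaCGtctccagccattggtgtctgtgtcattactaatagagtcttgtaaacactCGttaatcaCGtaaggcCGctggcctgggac
The stretches of Tpbpa and Ctsj hold 2 CpG each and that of Prl2a1 holds 0, against 19 for Ascl2 and 13 for Cdx2.

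Over the RefSeq windows of 300 bases (250 before and 50 after the start), which were found for 40 of the 48 genes, the 34 products had a median of 2 CpG with a range of 0 to 5. The 6 factors had a median of 14 and a range of 1 to 24. Among all 27025 promoters in the table the median was 7 and 43.9% held 10 CpG or more, a number reached by 0 of the 34 products and by 4 of the 6 factors. The 2 factors with few were Gcm1 with 1 CpG and Elf5 with 3. A window with 3 CpG or fewer was found at 29 of 34 products (85.3%) and at 31.9% of all promoters. Products lie in families of close copies, so their promoters are not independent of each other.

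**Figure D1:**
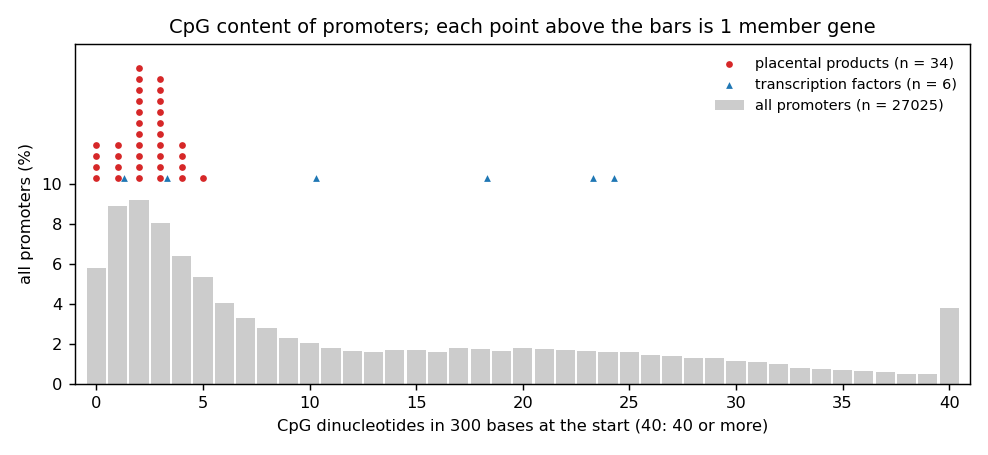
Number of CpG dinucleotides in the 300-base promoter window (horizontal axis) for all 27025 promoters (grey bars, percent of promoters, vertical axis, the last bar holding 40 or more) and for the members with an entry, each drawn as 1 point above the bars (red circles, 34 products; blue triangles, 6 factors). All products lie at 5 CpG or fewer, while 4 of the 6 factors lie at 10 or more.

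The placental lactogen I genes Prl3d1, Prl3d2 and Prl3d3 show how alike the copies are. Their last 120 bases before the annotated start (chr13:27094069-27094188, chr13:27121575-27121694 and chr13:27156674-27156793, all plus strand) are shifted against one another because the annotated starts differ, and the match to the motif TGANTCA stands in capitals.
Prl3d1: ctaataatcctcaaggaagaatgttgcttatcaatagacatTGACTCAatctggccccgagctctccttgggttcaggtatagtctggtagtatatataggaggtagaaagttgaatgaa
Prl3d2: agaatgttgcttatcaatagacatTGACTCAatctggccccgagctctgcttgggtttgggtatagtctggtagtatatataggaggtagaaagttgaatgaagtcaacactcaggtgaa
Prl3d3: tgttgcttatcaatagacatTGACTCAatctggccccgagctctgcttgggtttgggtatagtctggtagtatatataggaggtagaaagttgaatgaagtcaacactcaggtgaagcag
Aligned over the 300-base windows, Prl3d2 and Prl3d3 were 97.0% identical, Prl3d1 and Prl3d2 87.4%, Tpbpa and Tpbpb 95.7%, and the proliferin copies Prl2c3 and Prl2c5 95.3%. The proliferin-related gene Prl7d1 was 94.4% identical to Prl2c3 there.

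Searched on both strands, TGANTCA (the letters bound by AP-1 factors, the same on either strand) was in the windows of 11 of 34 products (32.4%) and 7.93% of all promoters. NGATAA, the core of GATA factor sites, was in 16 products (47.1%) and 25.7% of all promoters. GGAAGT, an ETS core, was in 11 products (32.4%) against 24.1%, and TATAAA in 7 (20.6%) against 14.2%. No motif contains another, and each is a match of letters. Copies count as separate promoters, so the shares of the products are not shares of independent sequences.

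The placental products were at or near 0 in ES cells and together exceeded the level of Mnx1 itself in wild-type motor neuron cultures. Their 38 levels summed to 9.1 and 15.3 TPM in the ES libraries, 1060.2 and 988.4 in wild type, 868.7 and 1203.8 in HD, and 206.5 and 69.8 in EH. Wild type and HD overlapped, and both EH libraries lay below all 4 of them. In wild type, 15 products were at 10 TPM or more in each library. The 5 highest (Tpbpa, Ctsj, Prl2a1, Prl7d1 and Plac1) made up 62.2% of the summed wild-type level. In a bulk library, fewer cells of a type and less RNA per cell cannot be told apart, and this holds for all levels given here.

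Tpbpa, trophoblast specific protein alpha and a marker of spongiotrophoblast and the ectoplacental cone, was the highest product. It was at 255.72 and 203.34 TPM in wild type, 202.65 and 272.57 in HD, 31.27 and 4.14 in EH, and 0 in both ES libraries. The EH libraries lay under all others of the motor neurons, and differed 7.55-fold from each other. Its near copy Tpbpb, 95.7% identical in the promoter window, was far lower, at 1.83 and 1.81 TPM in wild type, 2.29 and 2.82 in HD and 0.23 and 0.25 in EH.

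Ctsj, a placental cathepsin, was at 114.67 and 121.05 TPM in wild type, 93.83 and 123.27 in HD, 32.42 and 14.63 in EH and 0 in ES cells. It was the product with the most RNA left in EH. Ctsr stood at 28.63 and 26.97 TPM in wild type, 22.05 and 19.34 in HD and 4.87 and 2.05 in EH. Ctsq, a cathepsin of trophoblast giant cells, stood at 29.78 and 22.21 in wild type, 21.77 and 19.67 in HD and 3.73 and 1.70 in EH. These 3 cathepsins had 0 counts in both ES libraries, which makes the wild-type level at least 629-fold higher for Ctsq and at least 698-fold higher for Ctsr, against a floor of 3 counts over the ES group. Cts6 was at 2.82 and 1.65 TPM in wild type, and Ctsm, Cts3, Cts7 and Cts8 had wild-type means of 0.90, 0.68, 0.65 and 0.03. The cathepsins thus ran over a wide range, with 3 of 8 at 10 TPM or more.

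Of the prolactin family, 8 of 24 genes were at 10 TPM or more in both wild-type libraries. Prl2a1, a placental prolactin-like hormone, was the highest, at 128.24 and 102.56 TPM in wild type, 100.54 and 131.07 in HD, 16.80 and 2.61 in EH and 0 in ES cells. Prl7d1, the proliferin-related protein, was at 96.10 and 79.06 in wild type, 71.05 and 91.35 in HD, 13.54 and 3.02 in EH and 0 in ES cells. Prl6a1 was at 72.07 and 90.93 in wild type, 80.66 and 113.39 in HD, 17.04 and 3.81 in EH and 0 and 0.04 in ES cells. In all 3 genes both EH libraries lay below the 4 others of motor neurons, and EH library 1 lay above EH library 2.

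Prl2c5, a copy of the growth factor proliferin, was at 74.10 and 55.10 TPM in wild type, 50.13 and 86.01 in HD, 12.39 and 3.69 in EH, and 0.05 and 0.13 in ES cells. Its close copies were much lower and did not start from 0: Prl2c3 was at 3.67 and 3.80 in wild type and 1.06 and 5.06 in ES cells, and Prl2c2 at 2.54 and 3.08 in wild type and 1.19 and 1.92 in ES cells. The proliferin copies therefore did not share 1 pattern. Prl4a1, Prl2b1, Prl7b1 and Prl3b1 had wild-type means of 23.2 ± 3.80, 20.7 ± 0.70, 16.3 ± 3.59 and 12.3 ± 3.18 TPM (SD, n = 2) and 0 counts in ES cells. Against the floor of 3 counts their wild-type levels were at least 329-fold, 297-fold, 251-fold and 177-fold higher than in ES cells, and that of Prl7d1 at least 1410-fold higher. Prl3b1 is placental lactogen II, a hormone of the later placenta, and its level lay above that of placental lactogen I, made earlier (Prl3d1, 3.06 and 2.77 TPM).

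The remaining prolactin family genes were low. Prl3d1, Prl3d3, Prl5a1, Prl7a1, Prl7c1, Prl8a1 and Prl8a9 had wild-type means between 1.11 and 3.04 TPM, and Prl7a2 and Prl3d2 0.76 and 0.12. Prl3c1 and Prl8a8 were listed at 0 in all 8 libraries, and Prl3a1, Prl8a2 and Prl8a6 at 0 in both wild-type libraries. Prl8a1 and Prl3d2 went against the rest of the family, with more RNA in ES cells than in motor neurons. Prl8a1 was at 4.79 and 5.79 TPM in ES cells and between 2.22 and 3.18 in the 6 motor neuron libraries, and Prl3d2 at 0.96 and 0.98 in ES cells and at most 0.27 in motor neurons.

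Among the other products, Plac1, an X-linked protein of the placental surface, was at 73.01 and 100.39 TPM in wild type, 70.37 and 106.21 in HD, 31.64 and 13.96 in EH and 0.12 and 0.05 in ES cells. Serpinb9f, a serine protease inhibitor, was at 60.59 and 73.39 in wild type, 56.08 and 78.97 in HD, 17.53 and 6.94 in EH and 0 in ES cells. Both genes had every EH library below every other motor neuron library. Pcdh12, a protocadherin of glycogen trophoblast that endothelium also makes, was at 18.2 ± 1.17 TPM in wild type (SD, n = 2), 18.4 ± 5.37 in HD and 5.70 ± 2.70 in EH. With 2 counts in the ES group, its ratio of wild type to ES cells was 1630 (95% exact binomial interval 449 to 13400, counting error alone). Psg17, a pregnancy-specific glycoprotein, stayed under 2 TPM in all libraries.

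**Figure D2:**
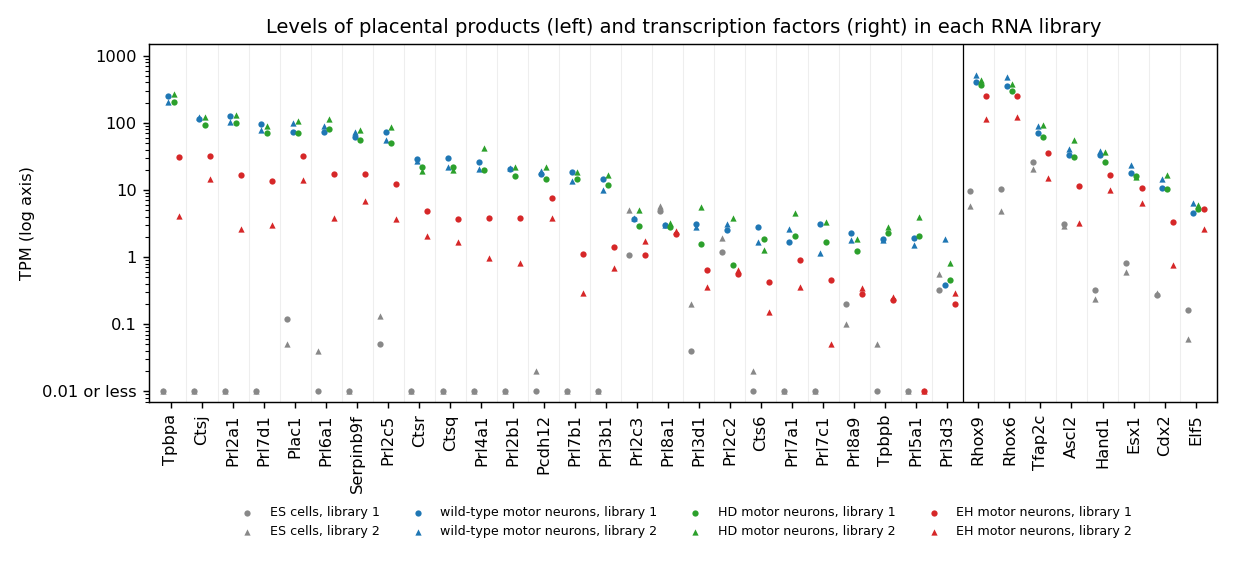
TPM on a log axis in each RNA library for the 34 members with a wild-type mean of 1 TPM or more, products on the left and factors on the right, ordered by wild-type mean (grey, ES cells; blue, wild type; green, HD; red, EH; circle, library 1; triangle, library 2; values of 0.01 or less are drawn at 0.01). Many products were at 0 in ES cells, the factors were not, and both EH points lie below the blue and green points at every gene drawn except Elf5.

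The quantification shares a read between copies where it fits more than 1, which shows as counts that are not whole (tolerance 0.005) or as a posterior standard deviation above 0. For 29 of 48 genes, counts were whole and that deviation was 0 in all 8 libraries, including 4 of the 8 products at 50 TPM or more. The others include Rhox9, Rhox6, Tpbpa, Prl6a1, Serpinb9f and Prl2c5. At these the deviation was small beside the counting error: at most 9.5 counts of 4970.4 for Rhox6 in EH library 1, 10.1 of 1043.2 for Serpinb9f in wild-type library 2, 0.4 of 415.9 for Prl2c5 in HD library 2, and 0.1 of 2480 for Tpbpa in wild-type library 1. Low copies were less certain, with 6.5 of 50.1 counts for Prl2c2 and 2.6 of 25.0 for Prl3d2 in ES library 2, so their order among copies is uncertain. Deviations of this kind count the uncertainty of assignment that the quantification itself saw.

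The factors differed from the products in that most had RNA in ES cells as well. Rhox9 and Rhox6, X-linked homeobox genes of the placenta and gonads, were the highest of all members. Rhox9 was at 410.24 and 524.98 TPM in wild type, 369.63 and 438.84 in HD, 249.67 and 113.01 in EH and 9.53 and 5.80 in ES cells. Rhox6 was at 356.81 and 482.31 in wild type, 300.87 and 374.55 in HD, 248.39 and 120.65 in EH and 10.51 and 4.83 in ES cells. The wild-type mean was 2.58-fold (Rhox9) and 2.27-fold (Rhox6) that of EH. Among products at a wild-type mean of 1 TPM or more and with RNA in EH, this fold ran from 1.3 at Prl8a1 and 2.68 at Prl2c3 to 23.2 at Prl7b1.

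Tfap2c (AP-2 gamma), a factor of trophectoderm and also of early surface ectoderm, was at 71.77 and 90.01 TPM in wild type, 61.83 and 93.40 in HD, 35.68 and 15.07 in EH and 26.12 and 20.20 in ES cells. It was the factor with the most RNA in ES cells, where its level lay within the range of the EH libraries. Ascl2, the bHLH factor needed for spongiotrophoblast, was at 33.56 and 40.53 in wild type, 31.45 and 54.69 in HD, 11.55 and 3.22 in EH and 3.16 and 2.88 in ES cells. Hand1, the bHLH factor of giant cells, which early mesoderm also makes, was at 32.66 and 38.45 in wild type, 25.69 and 36.74 in HD, 16.65 and 10.09 in EH and 0.32 and 0.24 in ES cells. For these 3 genes the EH libraries again lay below every wild-type and HD library.

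Esx1, a homeobox factor of the labyrinth, was at 17.69 and 23.47 TPM in wild type, 15.99 and 15.77 in HD, 10.69 and 6.38 in EH and 0.82 and 0.60 in ES cells. Cdx2, needed for trophectoderm and also made by the posterior embryo, was at 10.65 and 14.78 in wild type, 10.21 and 16.63 in HD, 3.28 and 0.77 in EH and 0.27 and 0.29 in ES cells. Elf5, an ETS factor of trophoblast stem cells, was at 4.61 and 6.38 in wild type, 5.22 and 5.98 in HD, 5.20 and 2.61 in EH and 0.16 and 0.06 in ES cells. Elf5 was the factor above 1 TPM whose EH libraries overlapped those of wild type. Eomes, a factor of trophoblast stem cells, and Gcm1, a factor of the labyrinth, had little RNA in motor neurons. Eomes was at 0.99 and 0.86 TPM in ES cells, 0.34 and 0.27 in wild type, 0 and 0.10 in HD and 0.20 and 0.16 in EH. Gcm1 was at 0.79 and 0.55 in ES cells and between 0.10 and 0.33 in all motor neuron libraries. Both of these were highest in ES cells.

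The question of what the induction of motor neurons changed was addressed by setting wild-type cultures against ES cells in 1 fit of all 8 libraries with edgeR. Of the 48 genes, 40 had enough counts to be tested, and 33 were called higher (Benjamini-Hochberg adjusted p under 0.05), a direction in which 38.8% of all 17770 genes tested were called. The median log2 fold change of the 40 was 6.45. The 4 genes called lower were Prl8a1, Prl3d2, Eomes and Gcm1, with log2 changes of -1.45 ± 0.23 (SE), -3.84 ± 0.88, -2.42 ± 0.45 and -1.96 ± 0.58, against 36.5% of all genes called lower and 75.3% called either way. Both wild-type libraries lay above both ES libraries at 35 of the 40 (59.4% of all genes) and below them at 4 (28.8%). Among the factors, Hand1 had the widest difference from ES cells at 6.32 ± 0.37 and Tfap2c the narrowest of those called higher at 1.10 ± 0.37. As the members were chosen partly for this pattern, these counts support nothing by themselves.

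The EH line was set against wild type in 1 fit of the 6 motor neuron libraries, in which 33 of the 48 genes could be tested. Lower in EH were 28 of the 33 at an adjusted p under 0.05 (edgeR), where 11.6% of all 15565 genes were called lower, 9.61% higher and 21.2% either way. All 33 estimates were negative. For 32 of the 33, both EH libraries were below both wild-type libraries, a state found for 32.5% of all genes tested, and the reverse, found for 28.1%, held for no member. The median log2 change was -2.62. By group, 12 of 16 prolactin family genes were called lower with a median of -2.97, 4 of 4 cathepsins with -2.93, 4 of 4 other products with -2.17, 7 of 8 factors with -1.36, and Tpbpa with -3.67 ± 0.76 (SE). Without wild-type library 1, or without wild-type library 2, edgeR called 0 members (32 of 35 and 28 of 34 had an unadjusted p under 0.05), with medians of -2.48 and -2.64. In those fits with fewer libraries the number of all genes called lower went from 1805 to 105 and 72.

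Prolactin family genes had some of the widest differences. Prl7b1 was 23.2-fold higher in wild type than in EH by the mean TPM (log2 change of EH against wild type -4.47 ± 0.48), and Prl2a1 differed by -3.54 ± 0.67, Prl3b1 by -3.49 ± 0.41 and Prl7d1 by -3.34 ± 0.57. Prl5a1 was listed at 0 in both EH libraries and at 1.94 and 1.51 TPM in wild type. Cathepsins Ctsq, Ctsr and Ctsj differed by -3.21 ± 0.35, -2.98 ± 0.36 and -2.31 ± 0.35. Of the factors, Cdx2 (-2.62 ± 0.60) and Ascl2 (-2.30 ± 0.55) differed most, then Tfap2c (-1.63 ± 0.40), Hand1 (-1.37 ± 0.28), Rhox9 (-1.36 ± 0.35), Esx1 (-1.26 ± 0.28) and Rhox6 (-1.17 ± 0.33). Elf5 (-0.52 ± 0.37) was not called, nor were the low genes Prl8a1 (-0.35 ± 0.24), Prl2c3 (-1.41 ± 0.41), Prl2c2 (-2.17 ± 0.66) and Prl7a1 (-1.72 ± 0.62).

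The EH libraries differed from each other at these genes more than at most genes. Among the 26 products with a wild-type mean of 1 TPM or more, 25 had RNA in both EH libraries, and 19 of these were higher in EH library 1. Over all 25 the median of library 1 against library 2 was 1.25 on the log2 scale (2.38-fold). All 8 factors at that level were higher in library 1, by a median of 1.09. Over all 15064 genes at that level the median was 0.00 and 49.8% were higher in library 1. Against the wild-type mean, products had a median log2 ratio of -2.38 in EH library 1 and -3.76 in EH library 2, and factors -1.02 and -1.93. The gap was 2.92 for Tpbpa, 2.69 for Prl2a1 and 2.20 for Prl2b1. That of Prl7c1, 3.17, rests on 9 counts in library 1 and 1 in library 2. The 6 products that were not higher in library 1 (Prl2c2, Prl2c3, Prl3d3, Prl8a1, Prl8a9 and Tpbpb) were all under 2.5 TPM in both EH libraries.

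**Figure D3:**
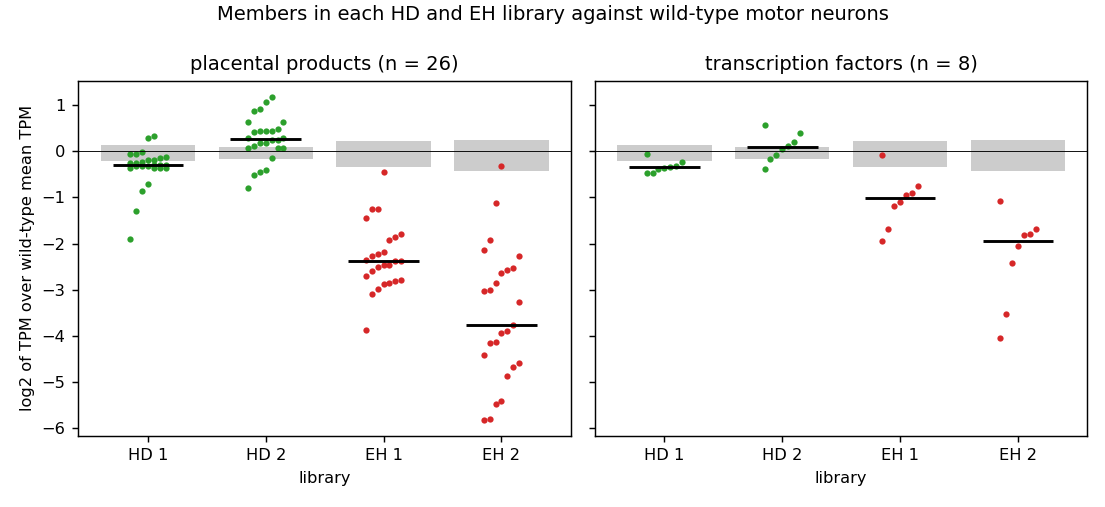
Log2 of TPM over the wild-type mean TPM (vertical axis) in each HD and EH library for the 26 products (left) and 8 factors (right) with a wild-type mean of 1 TPM or more. Points are genes (Prl5a1, at 0 in EH, is not drawn there), black bars are medians and grey boxes span the middle 50% of all 15064 genes at that level. Every gene with RNA in EH lies below the wild-type mean in both EH libraries, the EH 2 medians (-3.76 and -1.93) below those of EH 1 (-2.38 and -1.02), and the HD medians lie between -0.35 and 0.27.

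Lists of genes named for other cell types also differed in level between these libraries, though not all in the same direction. For their counts in EH against wild type, the shares of all genes tested were 11.6% called lower and 9.61% higher. The 10 epithelial genes, all at 1 TPM or more in each genotype, summed to 1740.1 and 2153.8 TPM in wild type, 1511.0 and 1968.8 in HD, 1129.0 and 719.8 in EH, and 9 of 10 were called lower in EH. The 16 yolk sac and endoderm genes, of which 10 were at 1 TPM or more in wild type, summed to between 263.3 and 297.3 TPM in wild type and HD but to 358.8 and 1014.0 in EH, with 4 of 13 called higher and 1 lower. Most of that sum was Sparc, a matrix protein made by many cell types, at 240.66 and 237.41 TPM in wild type and 255.20 and 763.95 in EH, which was not called (1.11 ± 0.43, adjusted p = 0.113). Among them Lama1, a laminin chain of basement membranes, was at 22.33 and 23.25 TPM in wild type and 55.59 and 166.65 in EH, so that EH library 2, the one with less placental RNA, had more of it. Besides Lama1, those called higher in EH were Gata4 (2.37 ± 0.52, SE), Rbp4 (1.75 ± 0.42) and Dab2 (1.13 ± 0.25). Gata4 was at 2.62 and 2.68 TPM in wild type and 6.53 and 19.46 in EH. Of the same list, Afp and Ttr did not exceed 3.63 and 3.55 TPM in any library. No epithelial or yolk sac gene was at 0 in every library. Of the 12 blood and endothelial genes, Ptprc, Hbb-y and Hbb-bh1 were at 0 in every wild-type and HD library. Of 6 tested, 1 was called higher in EH (Tek, 1.72 ± 0.36) and 2 lower, with 4 of 6 positive and a median of 0.19. Their sum was 121.3 and 137.3 TPM in wild type, 114.2 and 142.6 in HD and 56.8 and 30.9 in EH, most of it from Cdh5, a cadherin of endothelium, which was at 103.36 and 121.63 TPM in wild type and 40.83 and 18.02 in EH. Their part in the result was not tested.

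More genes of trophoblast were taken from lists that hold no member. Beside their counts in EH stand shares of 11.6% called lower and 9.61% higher among all genes tested. Of 51 other placental genes, 49 were found and 33 could be tested, and 25 were called lower and 2 higher in EH, with a median of -1.84. Their sum was 3556.1 and 4096.9 TPM in wild type and 1532.3 and 992.8 in EH. The highest was Sct, the hormone secretin, at 1137.77 and 1252.58 TPM in wild type, 949.70 and 1387.18 in HD and 270.29 and 115.47 in EH. Next came Peg10, an imprinted gene that the placenta needs, with means of 981.91 in wild type and 595.95 in EH, and Serpinb9e with 362.88 and 52.20. The list was not even in its response, since Ghrh, growth hormone releasing hormone, had means of 8.75 TPM in wild type and 42.82 in EH. Of 22 trophoblast regulators, all at 1 TPM or more in wild type, 14 were called lower in EH, with a median of -1.09. Against ES cells the regulators were mixed, with 8 called higher in wild type, 10 lower and a median of -0.36, where 38.8% of all genes were called higher and 36.5% lower. In EH against wild type, the regulator Pparg differed by -1.52 ± 0.23, Gata2 by -1.67 ± 0.32 and Ets2 by -1.06 ± 0.20 (SE). The motor neuron list had 1 of 12 called higher in EH and 2 lower, with a median of 0.01.

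The HD line carries the same genotype label as EH, and its levels of the placental genes were compared with wild type in the same fit. None of the 33 members passed at an adjusted p of 0.05 with edgeR, where 0.135% of all genes were called higher, 0.0385% lower and 0.173% either way. None had an unadjusted p under 0.05, and DESeq2 called none. The median log2 change was 0.04, 20 of 33 were positive, and the range ran from -0.51 ± 0.52 (SE) at Cts6 to 0.81 ± 0.47 at Prl5a1. For Tpbpa the difference was 0.06 ± 0.68, for Prl2a1 0.02 ± 0.60, for Ctsj -0.11 ± 0.33 and for Ascl2 0.23 ± 0.52, so changes of 2-fold in either direction lie within 2 standard errors for Tpbpa and Prl2a1. Both HD libraries lay above both wild-type libraries at 1 member and below them at 3, where 18.0% and 23.6% of all genes did so. Without HD library 1 the median was 0.25 and without HD library 2 it was -0.28, with 0 members called in either case, so its sign rests on 1 library. A p above the threshold does not show equal levels.

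The HD libraries also differed from each other. Of the 26 products, 23 were higher in HD library 2 than in HD library 1, as were 48.9% of all genes at that level. The median over all 26 products was 0.49 on the log2 scale, and that of all genes was near 0. Against the wild-type mean the products had a median of -0.29 in HD library 1 and 0.27 in HD library 2. The factors had -0.35 and 0.08. Members therefore moved together between replicates of 1 line, as they did in EH but by less. The wild-type libraries showed a median difference of -0.11 for products and 0.38 for factors (library 2 against library 1), so that in wild type the products and the factors did not shift the same way.

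The difference between the lines was taken from the same fit. Of 33 members, 27 were called higher in HD than in EH (edgeR, adjusted p under 0.05), where 11.8% of all genes were called higher, 9.43% lower and 21.2% either way. In all 33 both HD libraries lay above both EH libraries, as in 32.2% of all genes, while 29.6% of all genes lay the other way. Tpbpa differed by 3.73 ± 0.77 (SE) on the log2 scale, Prl3b1 by 3.72 ± 0.41, Cdx2 by 2.71 ± 0.60 and Ascl2 by 2.53 ± 0.55. Not called were Prl2c2 (1.85 ± 0.70), Prl8a1 (0.36 ± 0.25), Rhox9 (1.15 ± 0.35), Rhox6 (0.87 ± 0.33), Esx1 (0.89 ± 0.28) and Elf5 (0.60 ± 0.37), of which 4 are factors. This comparison shares the EH libraries with the one of EH and wild type, so it is no separate support. The median log2 difference of the members was 2.53, and 2.13 without HD library 2. It was 2.79 without HD library 1, and 2.53 and 2.55 without wild-type library 1 or 2. Fewer members were called in each of these smaller fits, and fewer of all genes too.

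The histone marks were measured in wild type and HD and were not used to choose the genes. H3K4me3 marks the starts of active and poised genes, H3K27ac active promoters and enhancers, H3K4me1 enhancers and the flanks of promoters, H3K27me3 genes held by Polycomb proteins, and H3K9me3 heterochromatin. The authors deposited 1 list of enriched regions per mark and genotype, so there is no spread between replicates and no test. A gene was counted as marked where a region overlapped the gene or the 2 kb on either side.

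None of the 38 placental products had an H3K4me3 region, in wild type or in HD, although 15 of them were at 10 TPM or more in wild type. Of all 20634 protein-coding genes 70.1% had one in wild type, and of the 9393 at 10 TPM or more 96.4% did. In HD the shares were 69.0% and 96.2%. H3K27ac was found at 0 products in wild type and 1 in HD, against 51.5% and 52.9% of coding genes. H3K4me1 was found at 1 product in each genotype, against 73.3% and 69.2%. That product was Pcdh12, with a highest fold enrichment of 6.98 for H3K4me1 in wild type and 3.79 in HD, and 1.99 for H3K27ac in HD.

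Regions of active marks were thus rarer at the products than at other genes of like RNA level, which were not matched for gene length. Regions were counted over the whole gene, so a long gene gave more room for one. Of the 15 products at 10 TPM or more in wild type, 14 had none of H3K4me3, H3K27ac and H3K4me1, as did 239 of the 9393 coding genes at that level (2.54%, the members included). At 50 TPM or more it was 8 of 8 products and 80 of 3660 coding genes (2.19%). In HD the numbers were 14 of 15 and 2.63% at 10 TPM, and 8 of 8 and 2.29% at 50 TPM. The region lists also lack some genes that nearly every cell uses, such as Actg1 and Eef2, at 3446.9 and 1539.3 TPM, so the absence of a region does not by itself show the absence of a mark. For 11 of the 15 products, RNA counts were whole with no shared reads, and 0 of these 11 had an H3K4me3 region in either genotype. Whole RNA counts do not show whether ChIP reads fit only 1 place at the promoter. Prl7d1 has whole counts, yet its promoter window was 94.4% identical to that of Prl2c3. Loss of ChIP reads that fit several copies was not tested.

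**Figure D4:**
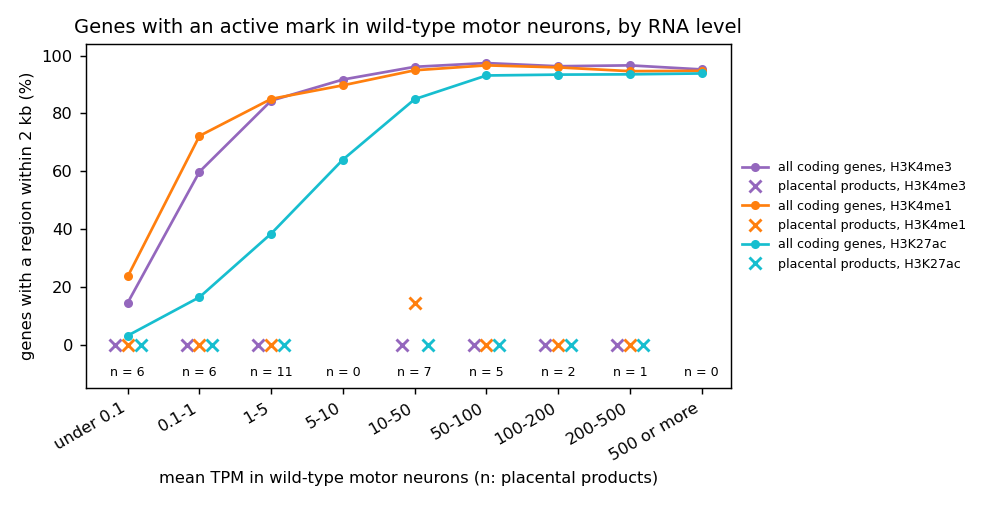
Percent of protein-coding genes with an H3K4me3, H3K4me1 or H3K27ac region within 2 kb in wild-type motor neurons (lines), by the mean TPM there, and the same percent for the placental products (crosses, set side by side), with the number of products under each bin. Among coding genes the H3K4me3 share is above 95% in every bin from 10 TPM up, while the products are at 0% in each bin that holds any.

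The low CpG content shown above goes with fewer marks among other genes too, though not to the same degree. Of 403 other coding genes at 10 TPM or more whose promoter window held 5 CpG or fewer, 335 (83.1%) had an H3K4me3 region and 50 (12.4%) had none of the 3 active marks. With 20 CpG or more it was 97.5% and 1.53% of 4646 genes. All 13 products at 10 TPM or more with a promoter entry held 5 CpG or fewer, and 0 of 13 had H3K4me3 and 13 of 13 had none of the 3 marks. What part of the culture made the placental RNA was not measured, so a mark present in a small share of cells and a mark absent from all cannot be told apart here.

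The nearest H3K4me3 region was often far away. It lay 199.9 kb from Tpbpa, 235.2 kb from Ctsj, 949.1 kb from Prl2a1 and 939.0 kb from Prl7d1 in wild type, and 11.0 kb from Plac1. The prolactin cluster, 21 members in 1.057 Mb at chr13:27094189-28151595, held 0 regions of H3K4me3, H3K27ac, H3K4me1, H3K27me3 or Mnx1 in wild type. In HD it held 1 of H3K27ac and 1 of H3K4me1. Of H3K9me3 it held 2 regions in each genotype (1.89 per Mb, against 7.76 per Mb genome-wide in wild type and 5.67 in HD). The cluster of Tpbp and cathepsin genes, 10 members in 0.669 Mb at chr13:60901295-61570170, held more H3K9me3 regions by contrast, with 18 in wild type (26.9 per Mb) and 14 in HD (20.9 per Mb). Their highest fold enrichment was 4.56 in wild type and 4.68 in HD, under the alternative threshold of 5, and H3K9me3 was profiled in 1 library per genotype. This cluster held 1 H3K4me3 region in each genotype, which lay outside the 2 kb of any member, and 0 of H3K27ac, H3K4me1, H3K27me3 and Mnx1. At the genes themselves, Ctsr had 2 H3K9me3 regions in wild type with a highest fold enrichment of 4.56, and Ctsm had 1 with 3.6. Neither had one in HD, where the whole list is shorter (15427 regions against 21120).

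H3K4me3, which no product had, lay at most of the factors. Of 10, 8 had an H3K4me3 region in both genotypes, near the share of all coding genes (70.1% in wild type and 69% in HD). The exceptions were Elf5 and Gcm1, whose promoters also held few CpG. For Ascl2 the highest fold enrichment was 27.27 in wild type and 17.68 in HD, for Tfap2c 32.31 and 13.36, for Esx1 25.95 and 16.82, for Cdx2 17.76 and 7.62, and for Hand1 13.74 and 8.70. Eomes, hardly expressed, had 32.23 and 18.23. Rhox6 (3.54 and 4.91) and Rhox9 (4.55 and 4.06) had the weakest, although their RNA was the highest of all members. Both had shared RNA reads, and loss of ChIP reads that fit several copies was not tested for them either. The HD values were lower at all but Rhox6, and the median of the whole H3K4me3 list was lower too, at 18.23 in HD and 33.84 in wild type.

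H3K27me3 lay at 6 factors in both genotypes: Ascl2, Cdx2, Eomes, Esx1, Hand1 and Tfap2c, the same 6 that had H3K4me3 apart from the Rhox genes. Among coding genes 25% had it in wild type and 17.8% in HD. Its highest fold enrichment was 15.15 at Tfap2c, 13.13 at Cdx2, 12.90 at Eomes, 10.94 at Esx1, 10.63 at Hand1 and 10.09 at Ascl2 in wild type. Tfap2c at 80.9 TPM and Eomes at 0.31 TPM thus carried the same pair of marks. H3K4me1 lay at 8 factors in wild type, all but the Rhox genes, and at 7 in HD, where Gcm1 had none. H3K9me3, profiled in 1 library per genotype, lay at 5 factors in both genotypes (Ascl2, Cdx2, Eomes, Hand1 and Tfap2c). Their fold enrichments were between 4.11 and 5.66 in wild type. Among coding genes 22.9% had H3K9me3 in wild type and 17.1% in HD. H3K27ac was at 2 factors, Tfap2c (2.46 in each genotype) and Elf5 (3.8 and 4.6). An Mnx1 region lay at 1 of the 48 members, Elf5, with 2 regions and a highest fold enrichment of 4.55, whereas 19% of coding genes and 32.6% of those at 10 TPM or more had one. None of the 38 products had an Mnx1 region.

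**Figure D5:**
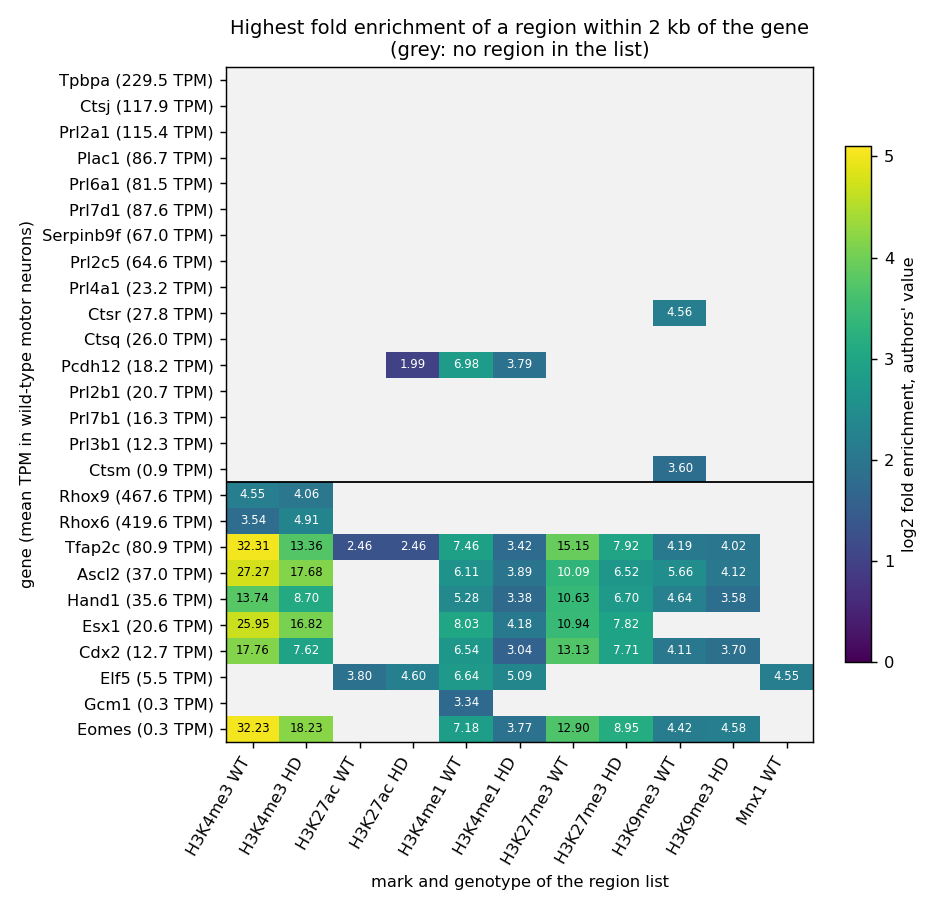
Highest fold enrichment (the authors' value, printed in each cell, colour on a log2 scale) of any region within 2 kb of the gene, for each mark and genotype, at products with a wild-type mean of 10 TPM or more or with any region (above the line) and at the 10 factors (below). Grey cells have no region. Of the 15 products at 10 TPM or more, 13 have no region in any list, and 6 factors have both H3K4me3 and H3K27me3 in both genotypes.

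Genes of the other lists differed in their marks. All 22 trophoblast regulators and all 10 epithelial genes had an H3K4me3 region in wild type, while H3K27ac was at 8 of the regulators and 4 of the epithelial genes and H3K27me3 at 19 and 10. The 12 motor neuron genes had H3K4me3 at 12, H3K27ac at 11 and H3K27me3 at 10, so H3K4me3 with H3K27me3 is not particular to the trophoblast lists. Among coding genes the shares were 70.1%, 51.5% and 25%. Of 48 other placental genes with coordinates, 14 had H3K4me3, 6 H3K27ac and 9 H3K27me3, and of the 20 at 10 TPM or more 10 had H3K4me3. Serpinb9e and Serpinb9g, at means of 362.88 and 81.41 TPM, had none of the 3 active marks, and their promoter windows held 2 and 3 CpG. Gjb2, a connexin, at 149.33 TPM with 27 CpG had H3K4me3, and so did Syna, a fusion protein of the labyrinth, at 77.24 TPM with 5 CpG.

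A pattern search over all genes took those with at least 5 TPM in every wild-type and HD library, under 0.5 TPM in both ES libraries, and both EH libraries under 50% of the lowest wild-type or HD library. It found 79 genes, of which 15 were members, and 10 of the 64 others were on the placental or trophoblast lists. Among those of highest wild-type level were Serpinb9e, Gjb2, Cyp26b1, Cdh5, Serpinb9g, Syna, Zfp36l3, Lrrc4b, Arhgef6, Pparg and C1qtnf6. Cyp26b1, which breaks down retinoic acid, was at 96.89 and 191.67 TPM in wild type and 13.55 and 42.21 in EH. There EH library 2 was the higher one, unlike at most members. Of the 56 others with coordinates, 43 had an H3K4me3 region in wild type and 12 had none of the 3 active marks. Of the 14 with 5 CpG or fewer, 7 had H3K4me3.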

How the data were processed

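RNA was measured in 8 poly(A) libraries, and 5 histone marks and Mnx1 by ChIP-seq. The submitters' processing notes name RSEM and STAR, MACS2 and Bowtie2, DESeq2, Trim Galore, Subread with featureCounts, and SAMtools, and the build mm10, without versions or roles. The deposited RNA tables give an expected count, its posterior standard deviation and TPM per gene, per the file headers. The authors' region lists, in MACS2 layout, give a fold enrichment ratio and a −log10 q per region, and how libraries were merged into 1 list per mark and genotype is not given in the sources used here. The list labelled wild-type H3K27ac has KO in its region names and was used as labelled.

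After rounding, counts went into the quasi-likelihood test of edgeR 4.0.16 under R 4.3.3 (filterByExpr, TMM), with Benjamini-Hochberg adjustment over all genes tested and a threshold of 0.05. The 6 motor neuron libraries made 1 fit with 3 residual degrees of freedom, and the ES comparison used all 8. Each standard error is the log2 fold change over the square root of its F statistic. Levels are TPM. Where a group had 0 counts, the fold was taken to a floor of 3 counts for that group, and with 1 to 3 counts an exact binomial interval of 95% was computed. Both cover counting error alone, because without molecular identifiers reads do not stand for separate molecules.

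Regions were joined to genes and promoter letters searched in Python 3.11.15 (pandas 2.3.3, numpy 2.4.6, scipy 1.17.1, with figures by matplotlib 3.10.9). Gene coordinates and promoters are RefSeq's for GRCm38.p6 (mm10). Promoters were found for 40 of 48 genes, the others being Prl2c2, Prl7b1, Prl8a2, Pcdh12, Tfap2c, Rhox6, Rhox9 and Hand1.

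The members and all gene lists were chosen with earlier results of these data known. Values are given in full for the 12 members of highest level in motor neurons and for every factor. Other genes named come from the lists (at 1 TPM or more in wild type, up to 5 a list) or are among the 12 highest of the pattern search, of which 1 is not reported here. Genes at or near 0, Actg1 and Eef2 were named after their values were seen.

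Simulated counts had 200 changed genes and the same spread between replicates at every gene. The shares recovered therefore do not hold for genes that vary more, such as Tpbpa (SE of 0.68 for HD against wild type). In these counts, 78% of 2-fold and 99% of 4-fold changes were recovered for EH against wild type, with 7 false calls. For HD against wild type, 70% and 97% were recovered with 6 false calls, for HD against EH 72% and 98% with 6, and for wild type against ES cells 74% and 94% with 9. Within every group the replicates differed by more than sampling noise (chi-square per degree of freedom of 4.46 to 55.17, widest in EH), so none was counted as 1 sample with another. Alternatives were DESeq2 1.42.0, limma 3.58.1 on log2(TPM + 1) and log2(TPM + 0.1), other scaling, no filter, the replicate block, summed copies, each library left out, and other windows and thresholds for regions.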

Additional observations from a re-analysis of the deposited data

Results flagged for a closer look

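HD and EH carry the same genotype label, and their levels of the placental genes differed in the test of HD against EH itself. Of the members whose values are given in full above, 12 passed it as higher in HD, where 11.8% of all genes were called higher. The log2 difference (HD over EH) was 3.73 for Tpbpa, 3.56 for Prl2a1, 3.28 for Prl7d1, 3.2 for Prl6a1, 3.06 for Prl2c5, 2.46 for Serpinb9f, 2.2 for Ctsj and 1.94 for Plac1. For the factors it was 2.71 for Cdx2, 2.53 for Ascl2, 1.58 for Tfap2c and 1.21 for Hand1. Both HD libraries lay above both EH libraries for each of the 12. The members were partly chosen from the EH libraries, so these values describe the lines and do not add support. Without HD library 2, edgeR called 3 members higher in place of 27.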

How the results depend on the processing

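For EH against wild type, 28 members were called lower. With the replicate block it was 18, and with each library left out 0 to 31, the 0 being without wild-type library 1 and without wild-type library 2. Under the other settings it was 27 to 34. For HD against EH, 27 were called higher, 18 with the replicate block, 19 with only those groups in the fit and 3 to 31 with each library left out. The lowest were 3 without HD library 2, 13 without HD library 1 and 17 without wild-type library 1 or 2. Against ES cells 30 to 34 were called higher under all settings run. For HD against wild type edgeR, DESeq2 and limma called 0 members under every setting run. Over all genes, DESeq2 called 146 higher and 36 lower there, and edgeR 21 and 6. For HD against EH, edgeR called 1835 of all genes higher, 1225 with the replicate block and 1177 with only those groups in the fit. For EH against wild type it called 1805 of all genes lower, and 1209 with the replicate block. Same-numbered libraries deviated together only weakly (r of -0.077 to 0.08 over 17770 genes). This cannot show whether they shared a culture or batch, since a shift at few genes would hardly change r.

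The 16 members tested among the 12 highest and the factors were negative in EH against wild type in each setting that gave them a value, which with copies summed was 11 of them. Of the 16, 15 were called, 14 with DESeq2, 7 with the replicate block and 0 without either wild-type library. The block left out the calls of Plac1 and of all 7 factors, with adjusted p from 0.0511 (Hand1) to 0.0997 (Rhox6). Rhox6 lost its call in 8 settings, DESeq2 and library totals among them.

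Counts of members with a region changed with the threshold. At a fold enrichment of 5 or more, H3K27ac was at 0 members in wild type and 0 in HD (2 and 3 without it), H3K4me1 in HD at 1 (8), H3K9me3 in wild type at 1 (7) and in HD at 0 (5), and Mnx1 at 0 (1). At a −log10 q of 5 or more, H3K27ac in wild type was at 1 member and H3K9me3 at 1 in wild type and 0 in HD. With 5 kb on either side H3K9me3 in HD was at 8. Of all alternatives to a count, 100 stayed within 1.5 times of it and 17 did not. The depth of 11.2 to 13.9 M counts in wild type and HD limits members under about 1 TPM.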
